A study of Mus musculus with 16 samples.

Results

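The RNA level of each gene was set against open and acetylated chromatin at its ends in progenitors of the mouse organ of Corti, purified by FACS at E12.0 as Sox2-GFP positive cells. The libraries used were 7 of the 16 in the series, namely 2 of RNA-seq, 3 of ATAC-seq and 2 of CUT&RUN for the histone mark H3K27ac, all from Sox2-GFP positive cells of the E12.0 cochlea with no treatment named. The 2 Tead CUT&RUN libraries of the same cells are quoted beside them where they bear on a gene group, and the E13.5 libraries were not used. The labels name a green fluorescent reporter of Sox2 and do not describe how it was built, nor the strain, nor whether replicates came from separate litters. Spread between libraries may therefore be technical. Protein-coding genes of a RefSeq table of GRCm38.p6 were ranked by their mean TPM over the 2 RNA libraries, the count per base of effective length scaled to the same total in each library, and 21152 of 21900 such genes could be ranked. Genes with a mean TPM below 0.1 were called silent (7361 genes, 6409 of them with no count in either library). The rest were divided by rank into 3 equal groups of 4597 genes, called low, middle and high. Their median TPM was 1.03, 11.6 and 57.0.

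Transcription by RNA polymerase II starts at promoters, where nucleosomes are displaced and the DNA becomes accessible. ATAC-seq reads this accessibility, because the Tn5 transposase inserts adapters preferentially into open DNA. Acetylation of histone H3 at lysine 27 marks nucleosomes beside active promoters and enhancers, and CUT&RUN maps it by cutting chromatin around a bound antibody. Many mammalian promoters lie in CpG islands and are open in most tissues, while promoters of tissue-restricted genes are often CpG-poor. In the early cochlear duct, Sox2 marks the prosensory domain, from which hair cells and supporting cells arise later.

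A gene end was taken as either end of the gene's annotated span with 1000 bases on each side, and it held a peak when a peak of the list overlapped that window by 1 base or more. An end is called open below when all 3 ATAC lists held a peak there, and acetylated when both H3K27ac lists did. A gene is called open and acetylated when the same end was both. The strength of a peak is given as its percentile within its own list by the authors' −log10 p, with 100 for the strongest peak and 0 where the list held none.

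The RNA libraries held 9412326 and 9810603 expected counts, and their TPM values correlated with a Spearman coefficient of 0.97 across the ranked genes. The mitochondrial ribosomal RNA mt-Rnr2 took 17.0% and 13.2% of the counts. For a gene of median length, 3 counts corresponded to 0.244 and 0.261 TPM, so silent means fewer counts than this depth can tell from 0 for most genes. Both libraries put 84.8% of genes in the same class. The ATAC lists held 112621 to 143817 peaks. The H3K27ac lists stood apart from each other. List 1 (KAPA HTP library kit) held 64887 peaks, 47724 of them with a −log10 q of 2 or more, and list 2 (Accel 2S Plus kit) held 92839, of which 14738 reached that limit. Kit and replicate cannot be told apart, and each H3K27ac result below is given for both lists. The peak lists give no read depth.

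The sorted cells had RNA of both genes that mark them. Sox2, the transcription factor gene named in the sorting reporter, had 21.3 and 28.8 TPM in the RNA libraries and ranked 4497th, just inside the high class. The class boundary ran between Gm266 and Ccdc90b, both at 24.3 TPM. The Sox2 start held ATAC peaks at percentiles 93.8, 93.6 and 96.5, and an H3K27ac peak in list 1 (percentile 94.8) but not in list 2. Ccnd1, which encodes cyclin D1 and promotes entry into the cell cycle, had 348 and 442 TPM and ranked 267th. An end of Ccnd1 was open, with ATAC percentiles of 80.1, 86.4 and 84.5, and its H3K27ac peak was likewise in list 1 alone (percentile 74.4). Markers of endothelial, immune and erythroid cells were low. Summed over 7 endothelial genes the TPM was 1.01 and 0.0823, over 9 immune genes 0.0340 and 0.747, and over 10 erythroid genes 0 and 1.69, with 7 erythroid genes at 0, among them Hba-a1 and Hba-a2. The 12 mesenchymal genes summed to 830 and 925 TPM, of which the proteoglycan genes Lum and Dcn gave 713 and 794 TPM and 102.3 and 102.8 TPM. Postn, a matrix protein gene, had 14.0 and 23.9 TPM, and Twist2, Tbx18 and Pou3f4 were at 0. The 6 glial genes summed to 364 and 538 TPM, mostly the neuregulin receptor gene Erbb3 (321 and 477 TPM). The 11 neuronal genes summed to 19.9 and 32.1 TPM, and the 12 hair cell genes to 3.60 and 7.79 TPM. The share of cells behind these levels, and their part in the results below, were not tested, and in sorted bulk samples fewer cells of a type and less RNA per cell cannot be told apart.

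Promoter sequences of the genes that recur below show how the ends of high and of silent genes can differ in base composition. They are the RefSeq windows of GRCm38.p6 from 250 bases before to 50 after a listed start, written 5′ to 3′ on the gene's strand. Capitals mark 4 short motifs found on either strand. These are the TATA box (TATAAA), the CCAAT box (CCAAT), the GC box (GGGCGG) and the Ets core (CCGGAA).
Sox2, chr3:34649745-34650044, plus strand: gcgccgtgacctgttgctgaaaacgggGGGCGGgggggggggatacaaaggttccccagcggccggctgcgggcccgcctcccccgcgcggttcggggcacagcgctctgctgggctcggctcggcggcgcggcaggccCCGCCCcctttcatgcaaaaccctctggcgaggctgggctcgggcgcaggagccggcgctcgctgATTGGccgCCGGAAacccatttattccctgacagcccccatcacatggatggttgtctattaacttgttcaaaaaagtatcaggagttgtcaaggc
Rpl27, chr11:101441995-101442294, plus strand: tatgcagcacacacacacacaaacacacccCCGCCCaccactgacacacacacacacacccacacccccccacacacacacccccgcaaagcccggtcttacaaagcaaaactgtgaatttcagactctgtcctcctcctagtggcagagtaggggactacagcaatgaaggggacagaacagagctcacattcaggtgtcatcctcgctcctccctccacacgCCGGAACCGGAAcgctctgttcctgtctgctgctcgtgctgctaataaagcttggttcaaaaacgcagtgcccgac
Tpt1, chr14:75845006-75845305, plus strand: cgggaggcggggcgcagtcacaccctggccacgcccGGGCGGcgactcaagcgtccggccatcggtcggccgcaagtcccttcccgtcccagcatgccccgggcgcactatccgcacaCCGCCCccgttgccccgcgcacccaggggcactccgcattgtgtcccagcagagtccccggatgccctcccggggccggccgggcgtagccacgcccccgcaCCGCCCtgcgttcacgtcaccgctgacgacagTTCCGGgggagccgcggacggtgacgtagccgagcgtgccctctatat
Gmfg, chr7:28437219-28437518, plus strand: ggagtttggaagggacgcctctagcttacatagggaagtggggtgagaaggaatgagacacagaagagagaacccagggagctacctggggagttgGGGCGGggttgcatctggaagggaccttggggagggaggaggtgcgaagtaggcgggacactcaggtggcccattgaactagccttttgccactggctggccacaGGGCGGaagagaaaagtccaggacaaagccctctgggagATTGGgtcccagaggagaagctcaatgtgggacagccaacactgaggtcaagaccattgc
Eml6, chr11:30025984-30026283, minus strand: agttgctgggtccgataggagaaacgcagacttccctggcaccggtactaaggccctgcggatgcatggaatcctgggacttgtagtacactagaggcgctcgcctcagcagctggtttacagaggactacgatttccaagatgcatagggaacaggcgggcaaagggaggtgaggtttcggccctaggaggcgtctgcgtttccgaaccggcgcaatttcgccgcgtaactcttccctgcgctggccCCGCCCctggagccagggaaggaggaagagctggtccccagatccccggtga
Xrra1, chr7:99858968-99859267, plus strand: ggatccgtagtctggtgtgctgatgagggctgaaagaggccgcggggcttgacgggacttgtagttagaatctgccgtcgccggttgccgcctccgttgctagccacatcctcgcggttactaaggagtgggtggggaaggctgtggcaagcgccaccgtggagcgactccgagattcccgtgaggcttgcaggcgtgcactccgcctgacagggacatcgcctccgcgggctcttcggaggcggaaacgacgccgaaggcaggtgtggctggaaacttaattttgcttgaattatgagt
Sox2, Rpl27 and Tpt1 are high genes and Gmfg, Eml6 and Xrra1 silent genes with open, acetylated starts. The ratio of observed to expected CpG in these windows was 0.819 for Sox2, 0.536 for Rpl27 and 0.995 for Tpt1. It was 0.223 for Gmfg, 0.738 for Eml6 and 0.972 for Xrra1, so the 3 silent genes ran from CpG-poor to as CpG-rich as Tpt1. None of the 6 windows held the letters of the TATA box.

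Open ends separated genes with RNA from silent genes more than they separated levels of RNA. An ATAC peak lay at an end of 93.6% to 94.6% of high genes in the 3 lists, against at most 30.6% of silent genes. The means were 94.2% ± 0.537 and 28.7% ± 1.82 (SD, n = 3 lists each). The difference of 65.5 ± 1.32 percentage points had the same sign in 3 of 3 lists. An exact sign-flip permutation test over lists (two-sided) gave p = 0.25, the smallest that 3 lists allow. Most of the step came at the bottom of the scale. Low genes had an ATAC peak at 77.5% ± 2.40, which was 48.8 ± 0.799 points above silent genes. Middle genes had 93.0% ± 0.763, which was 15.5 ± 1.65 points above low genes, and high genes exceeded middle genes by 1.16 ± 0.382 points (exact p = 0.25 for each difference, 3 of 3 lists). Genes just above the silent limit, with a median of 0.198 TPM, had an ATAC peak at an end in 62.8% to 70.0% of cases by list.

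**Figure D1:**
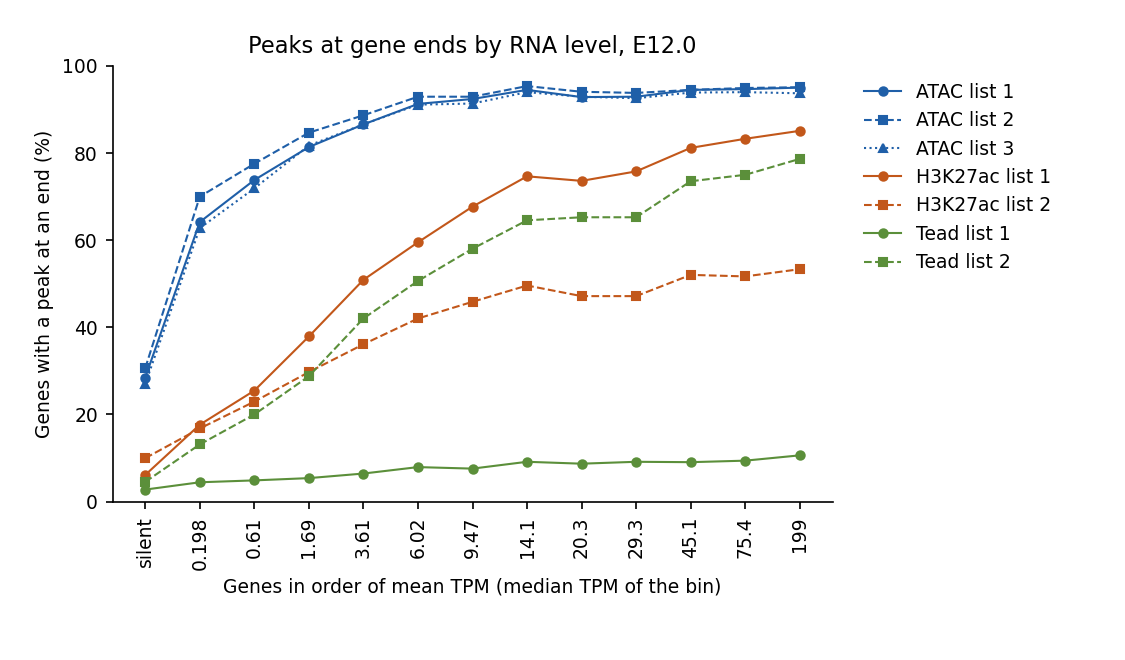
Share of genes with a peak at an end (y axis, %) for silent genes and for 12 equal groups of the other genes in order of mean TPM (x axis, median TPM of the group). Each line is 1 peak list. The ATAC lines climb steeply over the lowest groups and then lie flat above 90%, while the H3K27ac lines climb further and differ between lists.

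H3K27ac followed the RNA level over a wider range, with a large difference between lists. List 1 held a peak at an end of 81.4% of high genes against 6.11% of silent genes, and list 2 at 51.1% of high genes against 9.97% of silent genes. The difference was 75.2 points in list 1 and 41.1 points in list 2, a mean of 58.2 ± 24.2 (SD, n = 2 lists). With 2 lists the exact sign-flip test cannot go below p = 0.5, which is the value found. The low class had 33.0% and 26.4%, and the middle class 68.8% and 46.2%, so the order silent, low, middle, high was the same in each list. The lists largely nested among high genes. Of the high genes with a peak in list 2, 95.6% had one in list 1 as well, against 80.2% over all ranked genes. List 1 held a peak for 81.4% of all high genes and 41.9% of all ranked genes. Much of the 95.6% is thus given by how many high genes list 1 covered. Of the high genes with a peak in list 1, 60.0% had one in list 2, close to the 58.0% over all ranked genes. Among silent genes 26.6% of those in list 2 were in list 1, against 6.11% of all silent genes. Of the silent genes in list 1, 43.3% were in list 2, against 9.97% of all silent genes. Of the silent genes, 539 had a peak in list 2 only, against 255 in list 1 only. Over all ranked genes the order was the other way, with 1268 in list 2 only and 3723 in list 1 only.

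Counting genes that every list supported gave the same order. Open ends were found for 92.5% of high genes, 19.3% of silent genes and 61.5% of all ranked genes. Acetylated ends were found for 48.2% of high genes, 2.5% of silent genes and 23.8% of all. An end that was both was found for 1.68% of silent genes (124), 15.8% of low genes (725), 39.0% of middle genes (1792) and 47.1% of high genes (2167), against 22.7% of all. These counts depend on the H3K27ac list. Without list 2 the share was 78.6% of high genes, with 226 silent genes, and without list 1 it was 49.0%, with 210 silent genes. Where an end was open, the share that was also acetylated was 8.72% among silent genes, 22.8% among low, 43.0% among middle and 50.9% among high genes. Acetylated ends were nearly always open in genes with RNA. The share was 97.9% in high genes and 67.4% in silent genes. Read from the chromatin side, genes with an open, acetylated end had a median of 20.3 TPM (quartiles 7.45 and 54.0). Genes with an open end that was not acetylated had 6.11 TPM (0.550 and 24.9), and genes with neither had 0 (0 and 0.130). The 146 genes whose end was acetylated but not open had a median of 0.762 TPM.

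In the E12.0 Tead libraries of the same cells, a peak at an end was held by 9.55% of high genes against 2.76% of silent genes in list 1, and by 73.1% against 4.52% in list 2. Both Tead lists held one for 7.11% of high genes, 0.557% of silent genes and 3.64% of all.

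The ATAC signal sat mostly at gene starts, as did H3K27ac in genes with RNA. For the 17002 genes with a listed strand, an ATAC peak lay at the start of 93.0% ± 0.683 of high genes and at the far end of 16.6% ± 1.47 of them (SD, n = 3 lists each). The corresponding values for silent genes were 21.9% ± 1.77 at the start and 10.1% ± 0.891 at the far end. At single positions, ATAC peaks covered the start base of 84.2% ± 1.41 of high genes and 10.6% ± 2.22 of silent genes. At 10000 bases downstream they covered 2.36% ± 0.357 of high genes and 0.975% ± 0.194 of silent genes. H3K27ac peaks covered the start base of 28.9% ± 12.6 of high genes and 1.24% ± 0.0238 of silent genes (SD, n = 2 lists each). H3K27ac at the start window reached 79.6% and 49.7% of high genes in lists 1 and 2, against 3.81% and 5.43% of silent genes. At the far end list 1 held a peak for 12.4% of high genes and list 2 for 4.77%. In silent genes H3K27ac differed little between the ends, with a far-end peak in 2.86% to 5.02% by list.

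**Figure D2:**
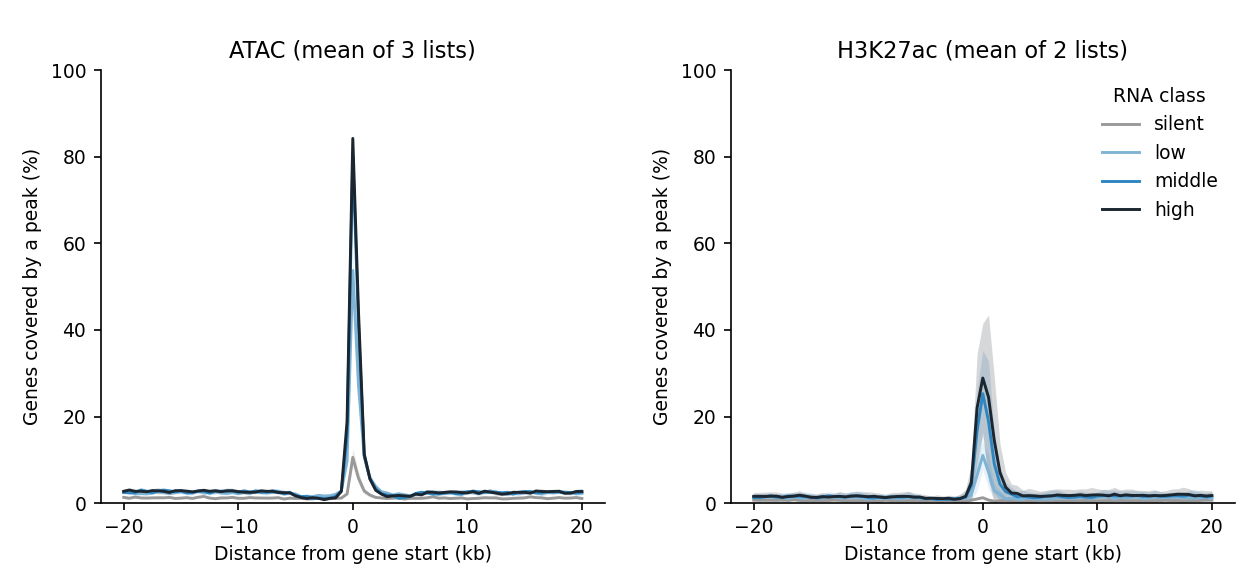
Share of genes covered by a peak (y axis, %) at each distance from the gene start (x axis, kb, downstream to the right), for silent, low, middle and high genes. Lines are means over 3 ATAC lists (left) or 2 H3K27ac lists (right) and shading is the SD over lists. ATAC reaches 84.2% of high genes and 10.6% of silent genes at the start, and the wide shading of H3K27ac reflects its 2 unequal lists.

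Where a peak was present, it was also stronger and wider at genes with more RNA, less clearly so for H3K27ac than for ATAC. The median ATAC percentile at an end with a peak was 95.3 to 96.5 in high genes and 68.1 to 73.4 in silent genes, by list. It was 85.4 to 89.4 in low and 94.2 to 95.7 in middle genes. The strongest ATAC peak at an end was 698 to 814 bases wide in the median high gene and 260.5 to 397 bases in the median silent gene. For H3K27ac the median percentile was 85.1 in list 1 and 90.7 in list 2 for high genes, against 61.8 and 57.0 for silent genes. In list 2 the middle genes had the same median as the high genes. Across the genes with an ATAC peak (14017 to 14605 by list) the Spearman coefficient of TPM and percentile was 0.49, 0.51 and 0.50. Across those with an H3K27ac peak (8872 and 6417) it was 0.21 and 0.19. These genes share a library and are not independent replicates, so this is a description only.

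Ribosomal protein genes made up 12 of the 25 most expressed genes. Rpl27, which encodes a protein of the large ribosomal subunit, led with 10411 and 7175 TPM (mean 8793 ± 2288, SD, n = 2). Its start was open at percentiles 99.4, 99.2 and 97.0 and acetylated at 99.5 and 70.2. Next came Rpl36 with 7532 and 4342 TPM. Tpt1, an abundant growth-related protein gene regulated at translation, had 6165 and 5615 TPM, with its start at ATAC percentiles of 97.2, 98.6 and 98.0. Rpl4 followed with 6537 and 4891 TPM. The 12 are counted by name, and 1 of them is a copy (Rpl34-ps1). Ribosomal protein genes have many near-identical copies, and reads could have been split among them, so their individual levels are uncertain. Library 1 was above library 2 for 23 of these 25 genes, with Eef1a1 and Actg1 the exceptions.

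Outside the ribosome, the leading genes covered growth signalling, histone variants and the cytoskeleton. Mdk encodes midkine, a secreted heparin-binding growth factor, and had 6159 and 4513 TPM, with an open, acetylated end at ATAC percentiles of 82.8, 83.5 and 72.2. Ppia, the gene of cyclophilin A, a protein-folding enzyme, had 5339 and 5270 TPM, an open start (94.8, 96.3 and 97.5) and H3K27ac percentiles of 74.7 and 24.2. H3f3a, which encodes the replication-independent histone H3.3, had 5162 and 4558 TPM, and H2az2, a gene of the variant H2A.Z, 5645 and 3740 TPM. H2az2 had the strongest open start of the group, at percentiles 99.8, 98.9 and above 99.9. Eef1a1, the elongation factor that brings transfer RNA to the ribosome, had 3627 and 4500 TPM. Actg1, gamma-actin, had 3274 and 4270 TPM, an open start, and H3K27ac there in list 1 only (percentile 98.5). Sparc, a secreted matrix-associated protein gene, had 2726 and 2114 TPM and was open and acetylated. Among the 25, Ybx1 alone had no ATAC peak at an end. Rps15a, Actg1, Rps13, Rps3a1 and Cox4i1 were open with H3K27ac at that end in list 1 only. Rpl34-ps1 was open with no H3K27ac peak in either list.

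**Figure D3:**
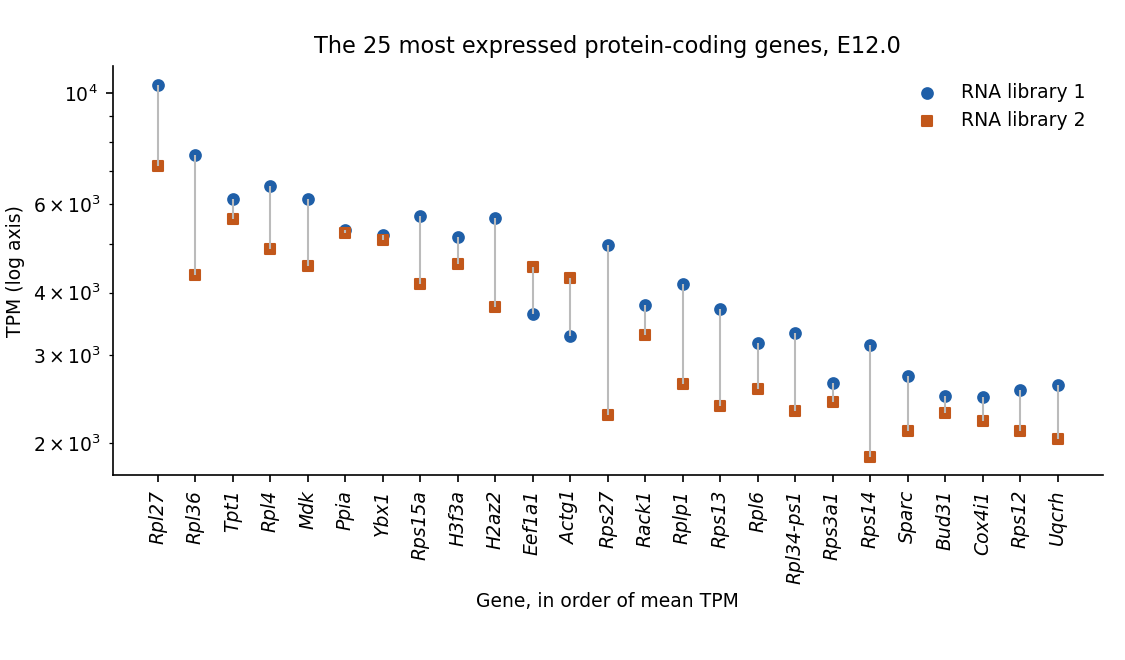
TPM of the 25 most expressed protein-coding genes in each of the 2 RNA libraries (y axis, log scale), in order of mean TPM (x axis). Each gene has 2 points joined by a line. Levels run from 10411 TPM for Rpl27 in library 1 to 1881 TPM for Rps14 in library 2.

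Lists of housekeeping genes were mostly open at their ends, against 61.5% open and 23.8% acetylated over all ranked genes. Of 80 ranked cytosolic ribosomal protein genes, 77 were high, 76 were open and 53 acetylated, and 76 had an H3K27ac peak in list 1 against 53 in list 2. All 12 translation factor genes were open and 11 acetylated, the exception being Pabpc1, the poly(A)-binding protein gene, with H3K27ac in list 1 only. All 12 chaperone genes were open and 8 acetylated, among them Hsp90ab1 (879 and 1164 TPM) and Hspa8 (775 and 1004 TPM). All 20 genes of the mitotic cell cycle were open and 10 acetylated. They included Ube2c, the ubiquitin-conjugating enzyme of the anaphase-promoting complex (510 and 520.5 TPM), Top2a, topoisomerase II alpha (323 and 455 TPM), and Ccnb1, cyclin B1 (286 and 374 TPM), all 3 acetylated. Few cytoskeletal genes were acetylated in both lists. All 12 were high, 9 were open and 2 acetylated, although list 1 held an H3K27ac peak for 11 of them and list 2 for 3. Vim (vimentin, 2209 and 1962 TPM) and Tubb5 (a beta-tubulin, 976 and 1066 TPM) had H3K27ac in list 1 only. Of 16 glycolytic genes 13 were open and 5 acetylated. Ldha, lactate dehydrogenase A, was high (154 and 236 TPM) with no ATAC or H3K27ac peak at its ends. All 3 ATAC lists held a peak inside its span. Most genes of these lists are high. Beside the 48.2% acetylated of the high class, the shares ran from 91.7% for translation factors, 66.7% for chaperones, 66.2% for ribosomal proteins and 50% for mitotic genes to 31.2% for glycolysis and 16.7% for the cytoskeleton.

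**Figure D4:**
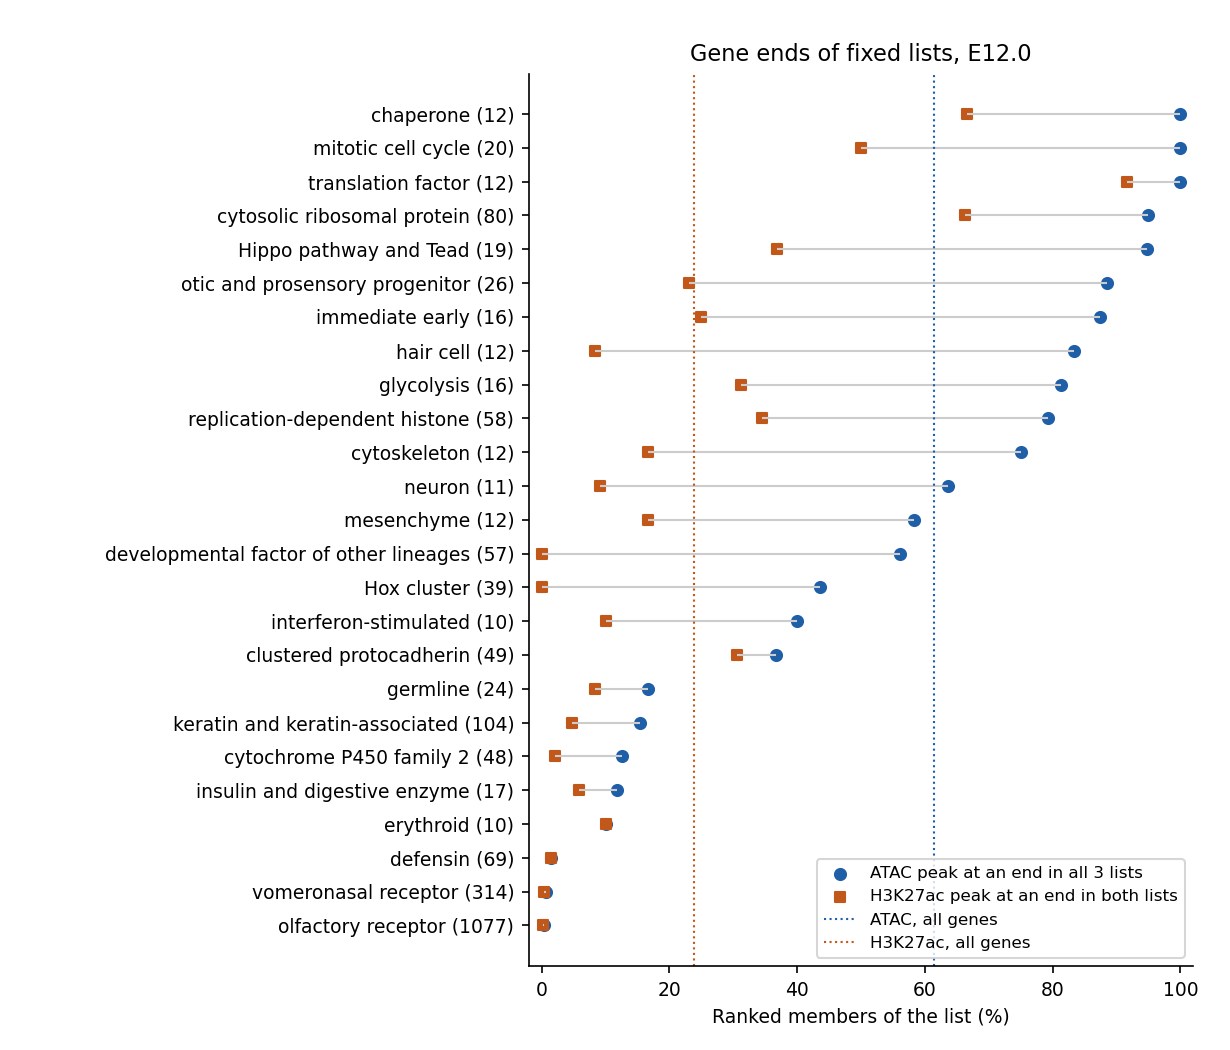
Share of ranked members with an open end (blue circles, ATAC peak in all 3 lists) and with an acetylated end (orange squares, H3K27ac peak in both lists) for each gene list of 10 or more ranked members, with the number of members in brackets. Dotted lines give the shares over all ranked genes, 61.5% and 23.8%. Housekeeping lists lie at the top and olfactory and vomeronasal receptors at the bottom. The developmental factors and the Hox cluster have open ends and none acetylated in both lists. Most of their members are silent, a class with 2.5% acetylated.

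Progenitor and Hippo pathway genes were mostly open. Acetylated ends were found for 23.1% of the progenitor list and 36.8% of the Hippo list, against 23.8% of all ranked genes. Most members of both lists are high or middle genes, classes with 48.2% and 40.0% acetylated. The Hippo share was near that of the middle class, and the progenitor share lay below both. Of 26 otic and prosensory progenitor genes, 18 were high and 4 middle. Of the 26, 23 were open and 6 acetylated, with an H3K27ac peak for 19 in list 1 and 8 in list 2. List 1 held one for 81.4% of high and 68.8% of middle genes, and list 2 for 51.1% and 46.2%. The progenitor count was thus near the class shares in list 1 and below them in list 2. Id1 and Id2, inhibitors of basic helix-loop-helix factors, had 927 and 1329 TPM and 560 and 565 TPM. Hmga2, a chromatin protein gene of embryonic and progenitor cells, had 665 and 748 TPM and was open and acetylated, as were Id2 and the Notch effector gene Hey1 (158 and 327 TPM). Gata3, a transcription factor gene of the otic sensory lineage, had 216 and 255 TPM and H3K27ac in list 1 only. Of the 19 Hippo pathway genes, which control the co-activator encoded by Yap1, 18 were open, 7 acetylated, 8 high and 9 middle. Tead2, a DNA-binding partner of Yap1, had 122 and 138 TPM and Ccn1, a secreted target of the pathway, had 79.6 and 129 TPM, both open and acetylated. Yap1 had 70.0 and 95.0 TPM and its relative Wwtr1 65.2 and 54.9 TPM. Both were open, and Wwtr1 was acetylated while Yap1 had H3K27ac in list 1 only.

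Silent members of fixed lists differed widely in how often their ends were open. Of the 1077 ranked olfactory receptor genes, 1075 were silent and 4 of these had open ends, which is 0.372% against 19.3% of all silent genes. An H3K27ac peak lay at the ends of 8 of the 1077 in list 1 and 89 in list 2. Over all silent genes list 1 held one for 6.11% and list 2 for 9.97%. The list 2 count is thus near the share of all silent genes and the list 1 count below it. Of 311 silent vomeronasal receptor genes 1 was open, of 54 silent defensin genes 1, and of 94 silent keratin and keratin-associated genes 10 (10.6%). Among the keratins, Krt18 (149 and 197 TPM) and Krt8 (99.3 and 137 TPM), the keratins of simple epithelia, were high and open and acetylated. The Hox genes, which pattern the head-to-tail axis, had 37 silent members of 39. Of the 37 silent members 15 were open (40.5%). Of all 39 genes 17 were open, and 35 had an ATAC peak in at least 1 list, as did 39.4% of all silent genes. An H3K27ac peak in either list was held by 0 of the 39. Of 57 transcription factor genes of other lineages, 47 were silent, and 24 of those 47 had open ends (51.1%). None of the 57 was acetylated in both lists, with 2 having a peak in list 1 and 5 in list 2. Of all silent genes only 2.5% were acetylated in both lists, so counts of 0 by that measure are near the background in lists of this size. A peak in at least 1 H3K27ac list was held by 13.4% of silent genes, against 0 of the 39 Hox genes. For the factors of other lineages it was 7 of 57, near the share of silent genes. Hair cell genes were also mostly open, but some had H3K27ac. Of 12, 7 were silent and 5 low, and 10 had open ends. A peak in at least 1 H3K27ac list was held by 3 of the 12, and 1 was acetylated in both lists. Such a peak was held by 13.4% of silent and 41.5% of low genes. Atoh1, the factor that specifies hair cells, had 0.154 and 0.665 TPM with an open end and no H3K27ac peak, and Pou4f3, which hair cells need to survive, had 0.137 and 3.93 TPM in the same state. Slc26a5, which encodes prestin, the motor protein of outer hair cells, had 0 and 0.188 TPM and an open, acetylated start, with ATAC percentiles of 94.1, 83.3 and 85.9 and H3K27ac percentiles of 84.2 and 49.3.

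The 124 silent genes with open, acetylated ends often lay beside a gene with RNA. Their number was 58 with windows of 250 bases and 406 with windows of 5000 bases. A window at the open, acetylated end also held the end of another gene for 67 of them, and in 60 of these cases the other gene was not silent. Counting any end, 58.1% of the 124 shared a window with another gene, against 33.7% of the 1290 silent genes with an open end that was not acetylated, 12.2% of the 5887 silent genes with neither, and 34.7% of all ranked genes. Tsks, a gene of a testis kinase substrate, had no count in either library, and its start was open at percentiles 99.9, 99.7 and 99.5 and acetylated at 96.8 and above 99.9. It shared this window with Ap2a1, an adaptor protein gene of clathrin-coated vesicles, at 68.0 TPM. Card6, a caspase-recruitment domain gene, had 0 and 0.0844 TPM and shared its end with Rpl37 at 56.4 TPM. Cnga4, a subunit gene of the olfactory cyclic nucleotide-gated channel, had no count and shared its start with Fam160a2 at 30.5 TPM. Apof, an apolipoprotein gene, had no count and shared its end with Stat2, the interferon signal transducer gene, at 8.13 TPM. Hormad1, a meiotic chromosome protein gene, had no count, and its far end was open at percentiles 99.8, 99.6 and 99.9. The gene it shared with, Gm40097, had no level in these tables.

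The other 57 shared the window with no gene end, and their peaks were at the start of 30 genes and at the far end of 19, with no strand listed for 8. For 50 of the 57 the end lay outside the span of any gene that was not silent. The median distance to the nearest end of such a gene was 18850 bases. Several of the leading members lay much closer. That distance was 1265 bases for Slc25a41, 1278 for Gmfg, 1292 for Cpne9, 1251 for Slc35g3 and 1081 for Mei1, just past the window, and the starts of Xrra1 and Tsnaxip1 lay inside the span of a gene that was not silent. Eml6 lay 73350 bases away. Slc25a41, a mitochondrial carrier gene, had 0.148 and 0 TPM, and its end was open at percentiles above 99.9, 99.9 and 99.5 and acetylated at 88.8 and 99.0. Gmfg, an actin regulator known from blood cells, had no count, with its start at ATAC percentiles of 99.8, above 99.9 and 98.7 and H3K27ac percentiles of 66.6 and 99.0. Eml6, of a family of microtubule-associated proteins, had 0 and 0.199 TPM, and its start was open at 97.2, 99.2 and 97.7 and acetylated at 66.6 and 97.9. Xrra1 had no count, and its start was open at 97.1, 99.7 and 99.1 and acetylated at 91.4 and 95.3. Tsnaxip1, also without a count, had its start at 99.6, 98.7 and 97.1 and at 96.8 and 99.9. They are named for their high ATAC percentiles, and each of these values lay above the lowest at the Rpl27 start (97.0).

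In other members the signal lay at the far end of the gene. Cpne9, a calcium-dependent phospholipid-binding protein gene, had 0.114 and 0 TPM and ATAC percentiles of 99.8, 99.5 and 99.3 at its far end. Tbx10, a T-box transcription factor gene, had no count, with percentiles of 97.6, 96.9 and 98.9 at its far end and H3K27ac at 99.0 and 99.6. Mei1, needed for meiotic DNA breaks, Slc35g3, a transporter family gene, and Smim38 also had no count and far-end peaks in all 5 lists. Gdf15, a stress-induced cytokine gene, had 0 and 0.133 TPM and far-end ATAC percentiles of 97.1, 92.0 and 94.7. The agouti signalling gene, Dnhd1, Catspere2, 4930505A04Rik, Rab40b, Gm10509, Stpg2, Vwa3b, Cracr2a, Colca2, Armc3, Fhad1, A630095N17Rik and Tmem239 complete the 25 that ranked first by their lowest ATAC percentile. Their mean levels lay below 0.1 TPM and all 5 lists held a peak at the same end.

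Promoters of silent genes with open ends held more CpG than those of other silent genes. The median ratio of observed to expected CpG in the promoter window was 0.189 in silent, 0.579 in low, 0.780 in middle and 0.832 in high genes. It was 0.380 in the 103 silent genes with open, acetylated ends and a listed promoter, and 0.521 in the 987 with an open end that was not acetylated, against 0.162 in the 4815 with neither. The promoter window lies at a listed start, whereas the open end can be either end. Of the 103, the strongest open, acetylated end was the start for 65 and the far end for 38. For the 38 the window is therefore not at that end. A ratio of 0.6 or more was held by 32.0% of the first group and 38.9% of the second, against 3.97% of the third. The share was 84.2% in high genes. Among high genes the median was 0.837 with open, acetylated ends and 0.840 with open ends that were not acetylated. The TATA letters were found in 6.42% of high promoters and 23.8% of silent ones, against 13.1% of all 17002 windows, and the GC box in 69.2% and 16.6% against 47.1% of all. The Ets core was found in 37.0% of high genes with open, acetylated ends and in 31.9% of high genes with open ends alone, against 19.3% of all. A match of letters is a description and not a site.

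**Figure D5:**
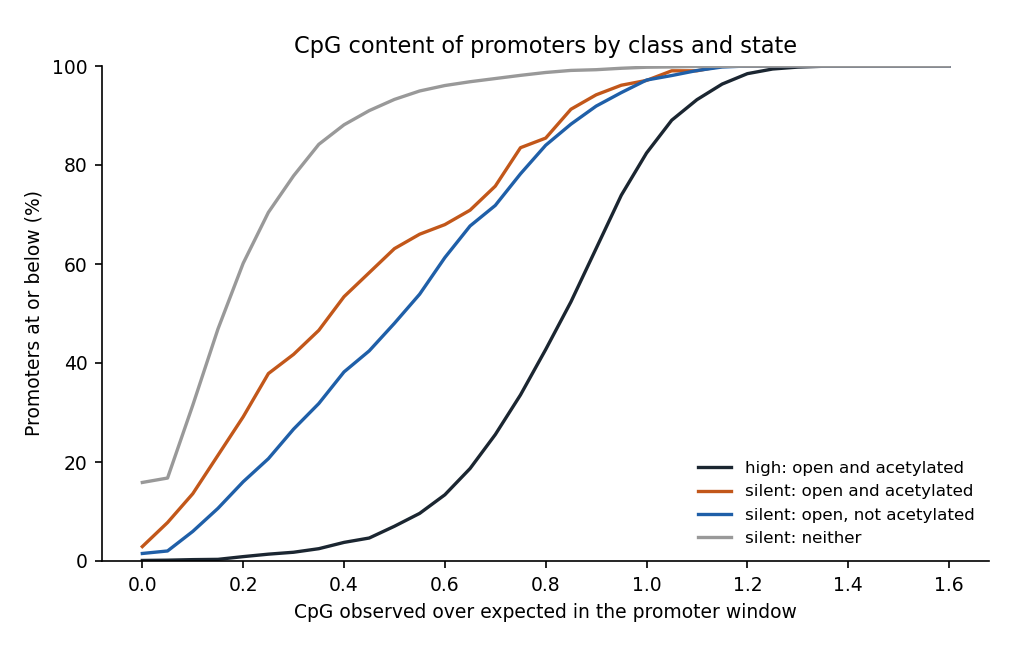
Cumulative share of promoters (y axis, %) at or below a ratio of observed to expected CpG (x axis), for high genes with open, acetylated ends and for silent genes by state. The ratio is taken at a listed start, while the state counts either end of the gene. The line of the high genes lies far to the right (median 0.837), silent genes with neither mark lie far to the left (0.162), and silent genes with open ends lie between (0.380 and 0.521).

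A small group of high genes had no ATAC peak at an end in any list. These were 197 of 4597 (4.29%, against 60.6% of silent genes and 26.3% of all). Ybx1, the gene of an RNA-binding Y-box protein, led them with 5207 and 5083 TPM and had H3K27ac at its start in list 1 (percentile 95.1). Rpl17 had 2290 and 1843 TPM, H3f3b, a further histone H3.3 gene, 1275 and 1546 TPM, and Fth1, ferritin heavy chain, 819 and 1045 TPM. Ppp1cc, a phosphatase subunit gene, had 865 and 1096 TPM, Gpx4, which detoxifies lipid peroxides, 947 and 855 TPM, and Hnrnph1, a splicing regulator gene, 676 and 1018 TPM. Igf2, the imprinted growth factor gene, had 454 and 487 TPM, App, the amyloid precursor gene, 348 and 461 TPM, and Tagap1 535 and 565 TPM. A gene's span runs to its outermost annotated start, and genes can have other starts inside it. Of the 167 with starts in the promoter table, 138 were open at a listed start in all 3 lists. All 3 lists held a peak inside the span of 175 of the 197, and no list held one for 18, Tagap1 among them, whose median span was 2329.5 bases. Counted at any listed start, 97.7% of high genes and 16.0% of silent genes were open.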

How the data were processed

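Expected counts per Ensembl gene with effective lengths, per the file headers, were deposited by the authors for each RNA library. No source used here names their tool. TPM was computed per library from count over effective length, over all genes of the table. Peak lists were deposited by the authors as 1 list per library, each peak with a fold (a ratio over background), a −log10 p and a −log10 q. Per the submitters' processing notes the tools were STAR, UMI-tools and MACS2 and the builds GRCm38 and mm10, with no versions. All deposited peaks entered the main values; the smallest −log10 p of each E12.0 ATAC list was 2.00, a permissive limit.

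Genes, spans and promoter sequences came from RefSeq tables of GRCm38.p6. Ensembl identifiers were matched by symbol (20759 genes) or synonym (393), leaving 748 of 21900 protein-coding genes unranked, the 13 mitochondrial ones included. Shares were compared within each list with an exact sign-flip permutation test over lists (numpy 2.4.6, pandas 2.3.3, scipy 1.17.1), since genes are not replicates. No fit across genes was made. The overlap, class and test steps were tested on made-up intervals. Counts of the 2 RNA libraries were further apart than counting error gives (chi-square over degrees of freedom 29.4), so each is 1 sample. Motif letters were searched on both strands of the 300-base windows.

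The text names Sox2 and Ccnd1, the 25 genes of highest TPM, the 25 silent genes with open, acetylated ends that share no window with another gene's end and 6 that do (both by lowest ATAC percentile; 1 of the 6 is not reported here), the 10 highest genes with no ATAC peak at an end, and up to 6 members of each fixed list. Members and lists were chosen with earlier results of these data known. Other windows, peak limits, silent limits and rankings and each library left out were tried.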

Additional observations from a re-analysis of the deposited data

How the results depend on the processing

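The difference in ATAC share between high and silent genes kept its sign in all settings tried, between 51.7 and 77.6 points. It moved from 65.5 points by more than the SD over lists to 70.6 with a window of 250 bases, 51.7 with 5000 bases, 71.7 with peaks of −log10 q of 2 or more, 77.6 with the 20000 strongest peaks of each list, 70.2 and 59.2 with silent set at no count and below 0.5 TPM, 71.1 at the start of the gene only, 68.6 without genes that share a window, and 75.6 at any listed start, a setting chosen after seeing the data. Leaving out each library gave 63.6 to 66.2 points. The H3K27ac difference of 58.2 points moved by less than its SD over lists in every setting. That SD was 24.2 points, so this limit is far wider than the one for ATAC. With all lists kept the difference ran from 43.9 points with the 20000 strongest peaks to 65.2 at any listed start. It was 46.4 with a window of 250 bases and 49.4 with peaks of −log10 q of 2 or more. Leaving out a library gave 41.1 to 75.2 points. With 2 lists, the shift from leaving 1 of them out is always below the SD.

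The 124 silent genes with open, acetylated ends became 58 and 406 with windows of 250 and 5000 bases, 64 and 51 with the 2 stricter peak limits (−log10 q, then the strongest 20000), 78 and 230 with the 2 other silent limits, 66 at the start only, 52 without shared windows and 60 at any listed start. Leaving out a library gave 125 to 226, the highest without H3K27ac list 2, and 210 without H3K27ac list 1. The share of high genes with such ends (47.1%) became 33.7% and 61.2% with the 2 windows, 26.2% and 25.5% with the 2 peak limits, 44.7% with the summit in the window, 45.5% when ranked by CPM, 41.1% without shared windows and 51.9% at any listed start. Leaving out a library gave 47.0% to 78.6%, the highest without H3K27ac list 2. The 197 high genes with no ATAC peak at an end became 380 and 30 with the 2 windows, 443 with the strongest 20000 peaks and 51 at any listed start, and 185 to 227 with a library left out. The other settings moved these values by less than the spread between lists, the counting interval or 1.5 times. The cause of each shift was not tested, beyond the construction of the setting. Fewer than 3 counts could not be told from 0 in the RNA, so silent genes may have RNA below that depth.

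No paired analysis was possible because no groups of samples were compared, and replicate numbers join no samples across groups. Class differences were already taken within each list.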

Other observations

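Replication-dependent histone genes, which make the histones of S phase, were spread over all RNA classes in these poly(A)-selected libraries. Of 58 ranked genes 6 were silent, 27 low, 18 middle and 7 high. Open ends were found for 46 (79.3%, against 61.5% of all ranked genes) and acetylated ends for 20 (34.5%, against 23.8%), with an H3K27ac peak for 49 in list 1 and 20 in list 2. Both Tead lists held a peak at an end of 31 of them (53.4%), against 3.64% of all ranked genes. H1f4, a linker histone gene, had 113 and 120 TPM and was open and acetylated. H2ac22 and H2ac21, core histone genes with no count in either library, had open, acetylated ends. At the H2ac22 end the ATAC percentiles were 97.8, 98.3 and 92.1, the H3K27ac percentiles 93.7 and 92.5 and the Tead percentiles 97.3 and 58.0. These genes are near-identical and lie in clusters, so counts may be split among them and 1 peak can fall at the ends of several.

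All 6 inducible heat shock genes had open ends, against 61.5% of all ranked genes. Of the 6, 3 were silent, a class with 19.3% open. Hspb1 and Hspa1l had no count and Hspa1a had 0 and 0.0659 TPM, and no H3K27ac list held a peak at their ends. Most silent genes had none either, as 13.4% of them held a peak in at least 1 list. Hsph1, a chaperone gene of the same list, had 31.1 and 49.4 TPM and was open and acetylated. Immediate early genes, which respond to stimuli, had open ends for 14 of 16 (87.5%, against 61.5% of all) and acetylated ends for 4 (25%, close to the 23.8% of all), with Egr1 at 70.8 and 87.8 TPM and Fos at 46.1 and 62.3 TPM.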
